A study of Mus musculus with 3 samples.

Results

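The mitochondrial respiratory chain was followed through 76 mouse genes: those whose symbols begin with Nduf (complex I), Sdh followed by a, b, c or d (complex II), Uqcr (complex III) or Cox4 to Cox8 (nuclear subunits of complex IV), pseudogenes left out. They were taken from 20654 genes with a symbol on the array and comprised 38 complex I subunits, 8 complex I assembly factors (Ndufaf), 4 genes of complex II, 8 of complex III and 18 of complex IV. Of the 76 genes, 74 had a probe well above background on at least 1 array, out of 15390 genes in all, and Cox7b2 and Cox8c did not. Symbols alone defined the set. Ndufa4, which carries a complex I name, is known as a subunit of complex IV, and it is counted here under its name.

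RNA came from cardiac myofibroblasts, the contractile fibroblasts that make matrix in an injured heart. All 3 groups shared the same origin, male C57BL/6J mice whose hearts were taken 3 days after the left anterior descending coronary artery was permanently tied, from cells that stayed on plastic overnight and were then cleared of leukocytes by their surface protein CD45. The labels give an age of 8 weeks in one field and of 10 weeks at ligation in another. Adherent cells were cultured on plastic plates, non-adherent cells in suspension, and re-adherent cells on plastic again after suspension. Per the study's methods these stages followed one another and most cells were lost in suspension, so that time in culture and survival cannot be told apart from the state. Each state had 1 array of RNA mixed from several hearts. Biological replicates are therefore lacking and no p-value is given; errors are the technical error assigned by the scanner software.

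Levels are scaled log2 signals, the log2 processed signal minus that of the array's 75th percentile, so that 0 is the 75th percentile. The level of a gene is compared between arrays for the same probe; levels of different genes are not ranked, and sums over a marker list describe the list as a whole. Differences between arrays are log2 differences of these levels and, unless called plain, are given relative to the median difference of all 15390 genes in the same pair, which was -0.07 for non-adherent minus adherent, 0.08 for re-adherent minus non-adherent and 0.06 for re-adherent minus adherent. A gene was called higher or lower when its plain difference exceeded 2-fold. The share of non-control spots well above background was between 53.9% and 59.9% on the 3 arrays.

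The respiratory chain moves electrons from NADH (complex I) and succinate (complex II) through ubiquinone, complex III and cytochrome c to oxygen at complex IV, and the proton gradient it builds drives ATP synthase. A few subunits are made in the mitochondrion itself; the genes measured here are all nuclear. Complex IV has several subunits that exist as pairs of isoforms, 1 made in most tissues and 1 largely restricted to certain tissues: Cox6a2 and Cox7a1 to heart and skeletal muscle, Cox8b to muscle and brown fat, Cox4i2 mainly to lung and Cox6b2 to testis. Many promoters of the widely used genes bind the factors NRF1 and GABP, a member of the ETS family.

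Promoter windows of 300 bases, 250 before and 50 after the start of the gene, were found in the RefSeq table (assembly GRCm38.p6) for 61 of the 76 genes. The NRF1 motif, GCGC and TGCGC parted by 1 base of any kind and searched on both strands, was present in 13 of 61 windows (21.3%) and in 5.19% of the windows of 27025 genes. The ETS core CCGGAAG, on both strands, was also present in 13 of 61 (21.3%), against 9.93% of all genes. Either was present in 24 of 61 (39.3%, against 14.0% of all genes), and both were present in the windows of Cox6a1 and Sdhd. TATAAA was present in 6 of 61 (9.84%, against 15.7%) and CAGCTG, an E-box of the kind bound by muscle regulators, in 5 of 61 (8.20%, against 18.3%). The median GC content was 58.3% in these windows and 52.8% over all genes. These are matches of letters and not tests of binding. The 250 bases before the start are shown for Cox8b and Cox7a1, tissue-restricted isoforms called higher in suspension, for Cox8a, the widely used partner of Cox8b, and for Cox6a1, the widely used partner of Cox6a2 and a gene with both motifs. Capitals mark a motif, and all are written 5′ to 3′ on the strand of the gene.
Cox8b, chr7:140900447-140900696, minus strand, capitals at the E-box CAGCTG, which begins at position -19 from the start: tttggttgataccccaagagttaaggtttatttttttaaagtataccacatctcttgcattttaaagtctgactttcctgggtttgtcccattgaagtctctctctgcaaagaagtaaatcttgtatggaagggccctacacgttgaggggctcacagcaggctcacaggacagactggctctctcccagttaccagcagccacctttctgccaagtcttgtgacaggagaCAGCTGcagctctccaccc
Cox7a1, chr7:30183921-30184170, plus strand, none of the 4 motifs: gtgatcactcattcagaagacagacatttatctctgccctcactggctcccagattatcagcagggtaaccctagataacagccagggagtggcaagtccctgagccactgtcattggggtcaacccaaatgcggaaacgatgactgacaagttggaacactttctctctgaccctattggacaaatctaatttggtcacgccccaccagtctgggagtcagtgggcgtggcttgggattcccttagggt
Cox8a, chr19:7217617-7217866, minus strand, no motif that lies wholly within the bases shown: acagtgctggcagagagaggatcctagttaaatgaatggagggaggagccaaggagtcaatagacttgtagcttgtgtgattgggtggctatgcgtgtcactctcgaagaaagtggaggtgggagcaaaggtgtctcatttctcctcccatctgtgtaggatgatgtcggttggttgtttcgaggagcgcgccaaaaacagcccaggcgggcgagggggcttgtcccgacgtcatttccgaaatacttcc
Cox6a1, chr5:115348959-115349208, minus strand, capitals at the NRF1 matches that begin at -162 and -117 and at the ETS match that begins at -16: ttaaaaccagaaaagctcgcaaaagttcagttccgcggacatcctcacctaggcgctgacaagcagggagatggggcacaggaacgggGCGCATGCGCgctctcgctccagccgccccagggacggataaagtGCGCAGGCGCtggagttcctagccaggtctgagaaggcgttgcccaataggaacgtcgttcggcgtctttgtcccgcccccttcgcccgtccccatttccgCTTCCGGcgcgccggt
In Cox8a an ETS core begins at -5 and runs past the start. The windows of Cox7a1 and Cox7a2 held none of the 4 motifs. The window of Cox8b held TATAAA and a second CAGCTG downstream of the start.

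Most genes of the chain kept close to their level in all 3 states. Non-adherent against adherent cells, 3 of the 74 genes were higher, where 17.2% of all genes were, and 1 was lower, where 14.7% of all genes were. Between re-adherent and non-adherent cells none of the 74 was higher (15.6% of all genes) and 4 were lower (16.3%). Between re-adherent and adherent cells none was higher (4.84%) and 1 was lower (4.89%). The genes called higher in suspension were Cox8b, Cox7a1 and Cox6a2, all tissue-restricted isoforms of complex IV. Those called lower on re-adhesion were the same 3 genes and Ndufa4l2, which was also the gene called lower in re-adherent than in adherent cells. At 1.5-fold the counts were 5 higher (25.4% of all genes) and 4 lower (26.3%) into suspension, 16 higher (27.7%) and 4 lower (24.8%) on re-adhesion, and 8 higher (12%) and 1 lower (10.8%) in re-adherent against adherent cells. At 4-fold they were 2 higher (7.62%) and 0 lower (5.34%) into suspension, 0 higher (5.71%) and 2 lower (6.06%) on re-adhesion, and 0 higher (1.36%) and 1 lower (1.29%) in re-adherent against adherent cells.

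The spread of the differences was narrower than over all genes. The interquartile range over the 74 genes was 0.33, 0.36 and 0.35 log2 units for the 3 pairs in the order above, against 1.22, 1.24 and 0.59 over all genes. Of the chain genes, 67 of 74 lay above the 75th percentile of the array on all 3 arrays, against 49.0% of all genes. Among the 7543 genes that bright, the interquartile range was 1.01, 0.98 and 0.44. Of them, 23.4%, 22.4% and 2.47% passed 2-fold in either direction in the 3 pairs. In the third pair, re-adherent minus adherent, 1.35% of the 74 chain genes did, near the share of bright genes. The technical error of a difference had a median of 0.20, and 43, 15 and 24 of the 74 genes differed by less than their own error in the 3 pairs.

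The median of the 74 genes was 0.09 for non-adherent minus adherent, 0.24 for re-adherent minus non-adherent and 0.24 for re-adherent minus adherent. On re-adhesion 58 of 74 genes lay above the median of all genes, and 58 of 74 (78.4%) had their highest level on the re-adherent array, against 32.7% of all genes. The lowest level was on the non-adherent array for 35 of 74. The median on re-adhesion depended on how the arrays were brought to the same scale: it was -0.069 after quantile normalization and 0.12 when set against the genes above the 75th percentile rather than all genes. A rise of the chain as a whole on re-adhesion is therefore not called here.

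**Figure D1:**
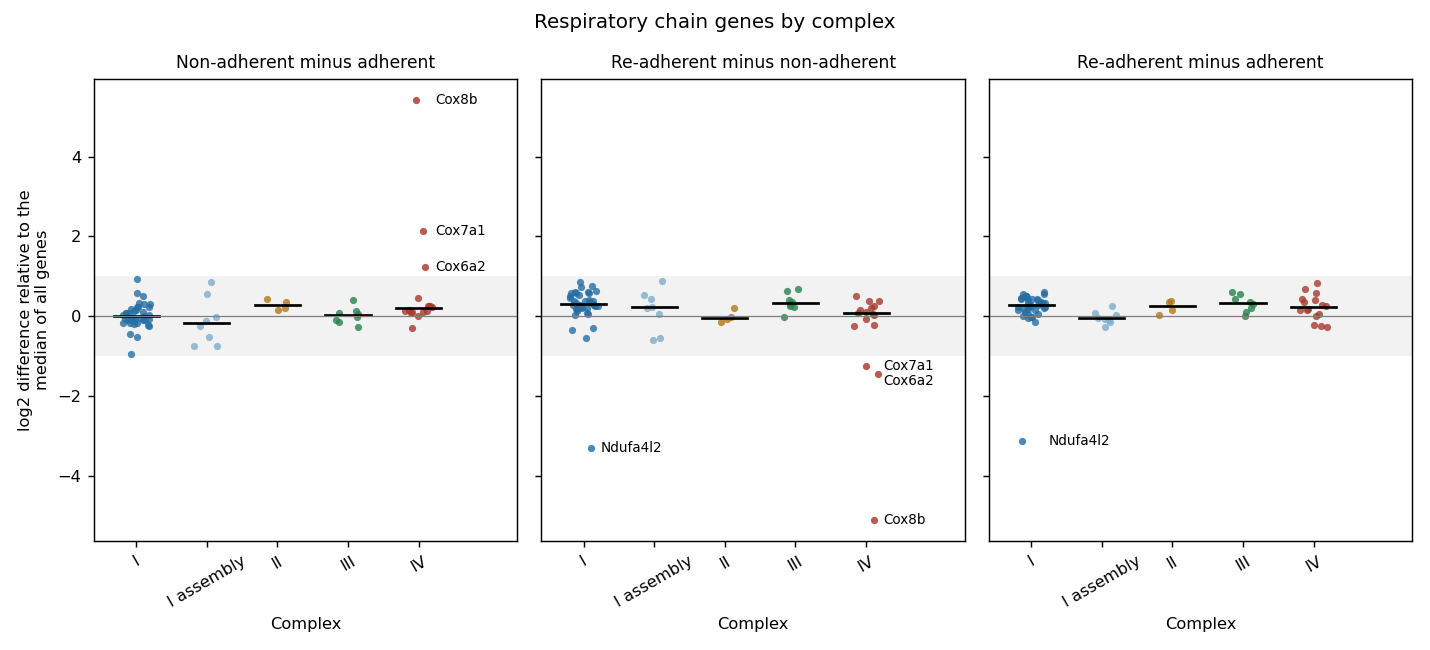
Each point is 1 of the 74 respiratory chain genes, placed by complex, with its log2 difference between 2 arrays relative to the median of all genes; black lines are medians of the complex and the grey band spans 2-fold either way. Nearly all points lie inside the band, and the named points outside it are isoforms of complex IV and Ndufa4l2.

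Complex I, which oxidises NADH, had a median of 0.01 in non-adherent minus adherent, 0.30 in re-adherent minus non-adherent and 0.29 in re-adherent minus adherent cells over its 38 subunits. After quantile normalization the median on re-adhesion was 0.0094. Its catalytic core carries the flavin and the iron-sulphur clusters. Among its subunits Ndufs1, Ndufs7, Ndufs8 and Ndufv1 stayed within 2-fold in every pair. Ndufv1, which holds the NADH site, was at 5.14 on the adherent, 4.85 on the non-adherent and 5.53 on the re-adherent array. Ndufs1, the largest subunit, was at 4.21, 3.96 and 4.24 in the same order. Both were lowest in suspension, and the difference from the adherent array relative to all genes was -0.22 for Ndufv1 and -0.18 for Ndufs1, each with a technical error of 0.20. Ndufs8, which carries iron-sulphur clusters, went the other way at 2.68, 2.95 and 3.30, a relative difference of 0.34 into suspension and 0.55 against adherent cells after re-adhesion. Ndufs7, another iron-sulphur subunit, was at 5.11, 5.35 and 5.47.

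Of the accessory subunits of complex I, Ndufab1 and Ndufv3 stood at the ends of the range in suspension. Ndufab1, the mitochondrial acyl carrier protein, was at 1.82 on the adherent, 0.80 on the non-adherent and 1.74 on the re-adherent array. Its plain difference into suspension was -1.02, just past 2-fold, and relative to all genes it was -0.95 with a technical error of 0.20. The call did not hold with no scaling, with the authors' scaled values, with the 75th percentile taken over detected probes or with another background correction. Ndufv3, an accessory subunit of the NADH-oxidising module, was at 5.55, 6.41 and 6.13, a relative difference of 0.92 into suspension, under 2-fold here and 1.21, past it, after quantile normalization. Ndufa1 was at 5.20, 5.72 and 5.25, and Ndufs4 at 4.08, 3.50 and 4.34. Neither passed 2-fold in any pair. Between re-adherent and adherent cells the highest of the 38 was Ndufa11, a membrane-arm subunit, with 3.25, 3.27 and 3.92 on the 3 arrays and a relative difference of 0.61.

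Ndufa4l2, a paralogue of Ndufa4 known to be induced in hypoxia and to lower complex I activity, differed from the rest of its list. It was at 0.41 on the adherent and 0.58 on the non-adherent array and at -2.66 on the re-adherent array. The first 2 levels differed by less than the technical error of 0.20, and the re-adherent level was lower by 9.42-fold than the non-adherent and by 8.37-fold than the adherent level on the plain scale. Relative to all genes these differences were -3.31 and -3.13, each with a technical error of 0.22, and Ndufa4l2 was the only one of the 74 genes over 2-fold lower in re-adherent than in adherent cells. Ndufa4 itself differed by -0.20, 0.32 and 0.06 in the 3 pairs and did not pass 2-fold.

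The 12 genes of a hypoxia response list, chosen after values were seen, are given beside it. Between re-adherent and adherent cells none of the 12 was over 2-fold higher, where 4.84% of all genes were, or lower, where 4.89% were. In suspension 4 of 12 were higher, where 17.2% of all genes were, and 1 was lower, where 14.7% were. Car9, a carbonic anhydrase, was at -2.35, 0.06 and -1.86 in adherent, non-adherent and re-adherent cells. Pdk1, the kinase that inhibits pyruvate dehydrogenase, was at -0.80, 0.70 and -0.69, and Adm, the adrenomedullin gene, at 5.24, 0.18 and 5.51. Whether Ndufa4l2 moved with hypoxia was not tested.

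The 8 assembly factors of complex I, which build the complex without staying in it, had a median of -0.18, 0.22 and -0.05 in the 3 pairs, and none passed 2-fold. Ndufaf2 was at 2.96 on the adherent, 2.14 on the non-adherent and 3.11 on the re-adherent array. Ndufaf4 was at 2.68, 1.88 and 2.48. Both were lowest in suspension, with relative differences from the adherent array of -0.76 and -0.74. Ndufaf3, the partner of Ndufaf4 in assembly, was highest there, at 0.31, 1.11 and 0.63. Between re-adherent and adherent cells the 8 factors kept within a narrow range, from -0.26 for Ndufaf4 to 0.26 for Ndufaf3, and 7 of 8 plain differences were smaller than their technical error.

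Complex II, succinate dehydrogenase, has 4 subunits and is shared with the citrate cycle. Its median was 0.28 into suspension, -0.05 on re-adhesion and 0.25 between re-adherent and adherent cells. Sdha, the flavoprotein, was at 4.42, 4.52 and 4.52 in adherent, non-adherent and re-adherent cells. Sdhb, the iron-sulphur subunit, was at 5.70, 5.84 and 6.14. Both catalytic subunits were lowest in adherent cells, as were the membrane anchors Sdhc, at 3.78, 4.15 and 4.20, and Sdhd, at 4.88, 5.16 and 5.09. No difference passed 2-fold, and 2 of the 4 into suspension were smaller than their technical error.

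Complex III, the cytochrome bc1 complex, had a median of 0.02 into suspension, 0.33 on re-adhesion and 0.33 between re-adherent and adherent cells. None of its 8 genes passed 2-fold, and all 8 lay above the median of all genes between re-adherent and adherent cells. Uqcrc1, a core subunit, was at 3.63, 3.55 and 4.25 in adherent, non-adherent and re-adherent cells. Uqcrfs1, the Rieske iron-sulphur protein, was at 4.58, 4.43 and 4.75. Uqcr10, a small subunit, was at 5.32, 5.66 and 5.98 and had the highest difference of the complex between the attached states, 0.60. Uqcrq was lowest in suspension at 6.41, between 6.75 on the adherent and 7.17 on the re-adherent array. After quantile normalization the median of complex III on re-adhesion was -0.045.

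The probe of Uqcrc2, the other core subunit of complex III, was printed 10 times on each array and gave a direct view of the technical spread. Its 10 spots ranged from 4.48 to 4.62 on the adherent array, with a mean of 4.55 ± 0.04 (SD over 10 spots). They ranged from 4.31 to 4.46 on the non-adherent array, with a mean of 4.35 ± 0.05, and from 4.79 to 4.87 on the re-adherent array, with a mean of 4.82 ± 0.02. The 3 ranges did not overlap, so a plain difference of -0.20 into suspension and of 0.47 on re-adhesion was larger than the spread between spots. All spots were kept here. The gene's level leaves out 1 spot, the highest, on the non-adherent and the re-adherent array. That level was 4.55, 4.34 and 4.82, with plain differences of -0.21 into suspension and 0.48 on re-adhesion. Spots on 1 array repeat the hybridisation of 1 RNA sample and say nothing of the spread between cultures.

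**Figure D2:**
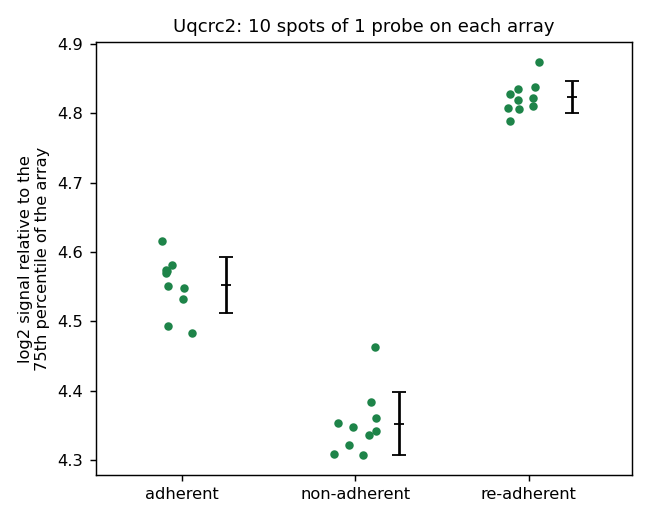
Points are the 10 spots of the Uqcrc2 probe on each of the 3 arrays, as log2 signal relative to the 75th percentile of the array; bars beside them are mean ± SD over spots. The means are 4.55, 4.35 and 4.82, and the spots of the 3 arrays do not overlap.

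Complex IV, cytochrome c oxidase, held widely used subunits within 2-fold in every pair and 3 isoforms past it. Over the 16 genes that passed the filter the median was 0.20 into suspension, 0.07 on re-adhesion and 0.22 between re-adherent and adherent cells. After quantile normalization these were 0.43, -0.35 and 0.0080. The mean into suspension was 0.67, with Cox8b at 5.42 and Cox7a1 at 2.12. Cox4i1, the widely used form of subunit 4, was at 6.70, 6.88 and 7.35 in adherent, non-adherent and re-adherent cells. Cox6a1 was at 8.23, 8.25 and 8.73, and Cox8a at 7.26, 7.44 and 7.68. These 3 widely used isoforms were each highest on the re-adherent array and within 2-fold in all pairs. After quantile normalization their differences on re-adhesion turned to -0.25, -0.32 and -0.56. Cox7a2 was at 5.36, 5.42 and 5.57, and Cox6b1 at 3.37, 3.56 and 3.84. Cox7a2l, which is known to help join complexes III and IV into supercomplexes, was at 6.15, 6.31 and 6.89 and differed by 0.68 between the attached states, re-adherent and adherent.

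Cox8b was detected in suspension only. Its probe was at -2.02 on the non-adherent array and not well above background on the other 2 arrays, where it read -7.37 (adherent) and -7.05 (re-adherent). It was therefore at least 9.59-fold higher in non-adherent than in adherent cells, and at least 7.29-fold higher than in re-adherent cells. Each bound rests on the faintest signal that still counted as well above background there. Its processed signal was 172 intensity units in suspension. The difference into suspension read from the dim signals, 5.42, ranged from 1.86 with the normexp background correction to 5.56 with no filter. The bound, 3.26 on the log2 scale, holds for the background correction of the scanner software and was not met with normexp. With 1 probe on the array, no second probe checks it.

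Cox7a1, the heart and muscle form of subunit 7a, was at -1.10 on the adherent, 0.96 on the non-adherent and -0.20 on the re-adherent array, well above background on all 3. It was 4.15-fold higher in non-adherent than in adherent cells and 2.23-fold lower in re-adherent than in non-adherent cells on the plain scale. Relative to all genes the differences were 2.12 and -1.24, with technical errors of 0.21 and 0.20, and between re-adherent and adherent cells it stayed higher by 0.83, under 2-fold.

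Cox6a2, the heart and muscle form of subunit 6a, was at -1.48, -0.31 and -1.68 on the 3 arrays. It was 2.25-fold higher in non-adherent than in adherent cells and 2.59-fold lower in re-adherent than in non-adherent cells on the plain scale. The re-adherent and adherent levels differed by -0.27 relative to all genes, with a technical error of 0.21. Cox8b, Cox7a1 and Cox6a2 shared this order, with the non-adherent array highest, while the probes of their widely used partners Cox8a, Cox7a2 and Cox6a1 differed by 0.25, 0.13 and 0.10 into suspension. Under the processing alternatives the partners reached up to 0.67, 0.30 and 0.56. The lowest values of Cox8b, Cox7a1 and Cox6a2 there were 1.86, 1.81 and 1.04.

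The tissue-restricted isoforms did not all move. Cox4i2, the form of subunit 4 known from lung, was at -0.92, -0.53 and -0.67 and Cox6b2, the testis form of subunit 6b, at -1.69, -2.06 and -1.87. Neither passed 2-fold in any pair, and in suspension they differed in opposite directions, by 0.46 and -0.30. Cox7b2 and Cox8c, both known from testis, were not well above background on any array.

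**Figure D3:**
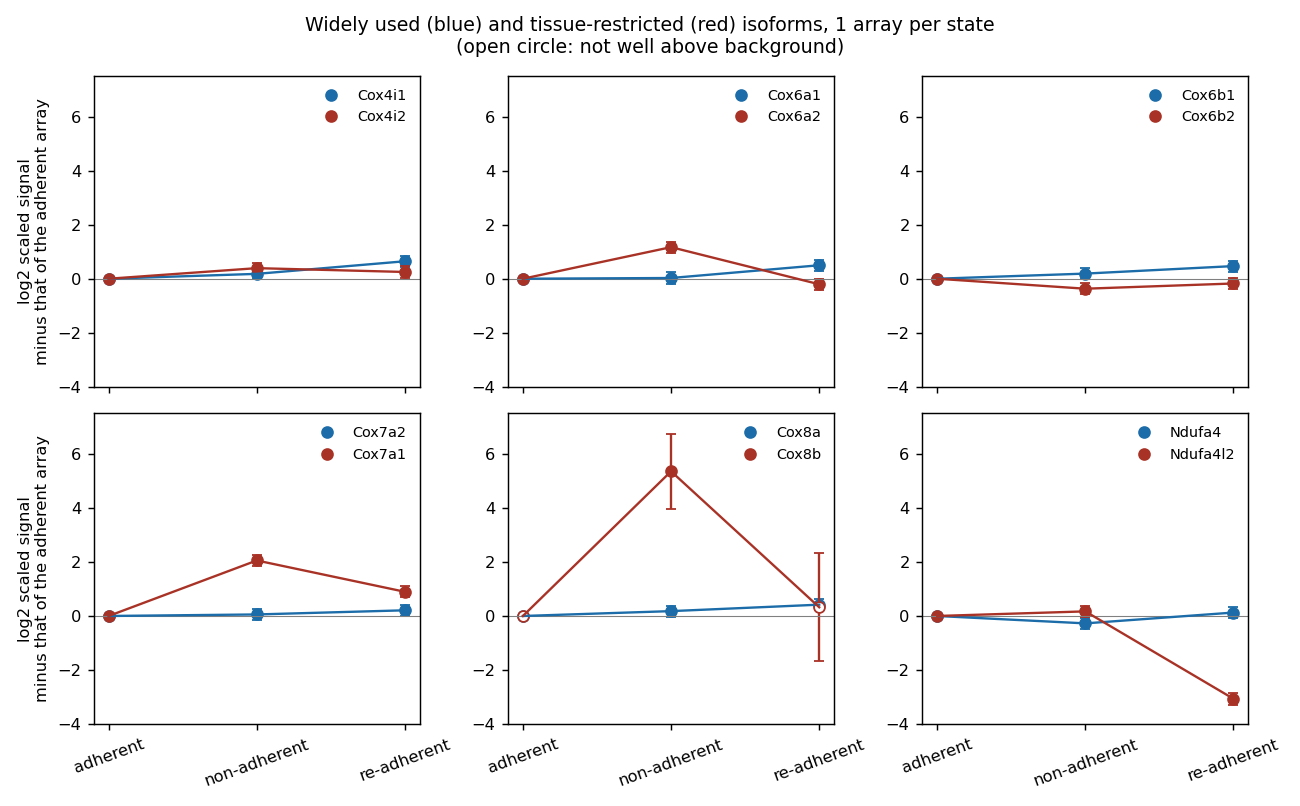
Panels show a widely used isoform (blue) and its tissue-restricted partner (red), or Ndufa4 (blue) and its paralogue Ndufa4l2 (red). Values are the scaled log2 signal minus that of the same probe on the adherent array, for the 3 states with 1 array each. Bars are the technical error of the difference and open circles are signals not well above background. Cox6a2, Cox7a1 and Cox8b peak on the non-adherent array, Ndufa4l2 is low on the re-adherent array, and the blue lines stay within 2-fold.

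Median differences of the macrophage, endothelial, cardiomyocyte and brown fat lists rose into suspension and fell on re-adhesion, as did Cox8b, Cox7a1 and Cox6a2. The summed levels did not all do so. The cardiomyocyte sum was highest on the re-adherent array, and the endothelial sum stayed nearly level on re-adhesion. The part of these cell types in the result was not tested. In a bulk sample a change in the number of cells of a type and a change in RNA per cell cannot be told apart. All 10 myofibroblast markers were detected on every array, and their summed linear level, in units of the array's 75th percentile, was 2145 on the adherent, 818 on the non-adherent and 1883 on the re-adherent array. Of these 10, 5 were over 2-fold lower in non-adherent than in adherent cells (14.7% of all genes) and 0 higher (17.2%). On re-adhesion 4 were over 2-fold higher (15.6%) and 0 lower (16.3%). Acta2, smooth muscle actin, had the largest change of the 10 in both pairs, at 9.38, 2.75 and 9.32. Col3a1 went the other way, with plain differences of 0.19 into suspension, within its technical error, and -0.95 on re-adhesion. Those of Postn were -0.12 and -0.09, both within that error. The macrophage list (10 of 11 measured, all 10 detected on every array) summed to 128, 925 and 294. All 10 were over 2-fold higher in non-adherent than in adherent cells, where 17.2% of all genes were. On re-adhesion 9 of 10 were over 2-fold lower (16.3% of all genes) and 1 was higher (15.6%). Ptprc, which encodes CD45, was at -0.87, 1.81 and -0.03.

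The endothelial list summed to 16.4, 20.2 and 19.9 over 8 genes, of which 7, 8 and 5 were well above background. Over the genes of this list the median difference was 1.92 into suspension, with 5 of 8 over 2-fold higher, where 17.2% of all genes were. On re-adhesion it was -2.73, with 7 of 8 over 2-fold lower, where 16.3% of all genes were, the same order as the isoforms. Between re-adherent and adherent cells it was -1.38, with 4 of 8 over 2-fold lower (4.89% of all genes) and 0 higher (4.84%). Kdr, a receptor for VEGF that held most of the sum, went the other way at 3.86, 3.51 and 4.25. Erg, called in both pairs with suspension, passed the filter only through the non-adherent array. Its bounds were 2.41-fold above the adherent and 1.83-fold above the re-adherent array. The cardiomyocyte list (7 of 10 measured; Actn2, Ryr2 and Pln were not well above background on any array) summed to 1.27, 2.05 and 3.43, with 5, 7 and 5 of the 7 detected. Its median difference was 1.06 into suspension, with 3 of 7 over 2-fold higher (17.2% of all genes) and 0 lower (14.7%). On re-adhesion it was -0.72, with 1 higher (15.6%) and 2 lower (16.3%). Myl7 and Tnni3, among the 3 higher in suspension, passed the filter only through the non-adherent array. Their bounds above the adherent array were 1.17-fold and 3.14-fold, and the medians include their readings below background. Myh6, cardiac myosin heavy chain, was highest on the non-adherent array, at -4.16, -3.20 and -4.33, as were the isoforms, and Tnnt2, cardiac troponin T, on the re-adherent array, at -0.13, 0.46 and 1.60. A list of brown fat genes, chosen after values were seen, summed to 1.69, 6.60 and 1.93 over 6 of 8 genes. Of these 6, 4 were over 2-fold higher in suspension, where 17.2% of all genes were. On re-adhesion 4 were over 2-fold lower, where 16.3% of all genes were. Of the 6 genes, 4, 6 and 3 were well above background on the 3 arrays. Adipoq and Cidea, among the 4 higher in suspension, passed the filter only through the non-adherent array, which favours such calls. The bound for Cidea was 1.87-fold above the adherent array. Ucp1 and Elovl3 were not well above background on any array. Adipoq, the adiponectin gene of fat cells in general, was detected on the non-adherent array only, at least 26.1-fold above the adherent array, and Pparg, the fat cell regulator, was at 0.22, 2.30 and 0.47.

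The medians of ATP synthase were close to those of complex I. ATP synthase, which uses the proton gradient, had medians of 0.00, 0.30 and 0.30 in the 3 pairs over 16 genes. None passed 2-fold into suspension, where 17.2% of all genes were higher and 14.7% lower. On re-adhesion 1 was higher, where 15.6% of all genes were. This was Atp5o, a stalk subunit, at 4.71, 3.84 and 5.14 in adherent, non-adherent and re-adherent cells. All 16 lay above the median of all genes between re-adherent and adherent cells, with plain differences from 0.10 for Atp5j to 0.62 for Atp5d. After quantile normalization the median of ATP synthase on re-adhesion was -0.20.

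Among 16 genes for ubiquinone and the other electron carriers, 1 was higher in suspension (17.2% of all genes) and 1 lower (14.7%). The higher was Coq8a, a kinase-like protein of ubiquinone synthesis, dim at -4.07, -2.74 and -3.39 on the 3 arrays. The lower was Pdss1, which makes the ubiquinone side chain, at 0.60, -0.57 and 0.14. The medians of the 16 genes were -0.02, 0.36 and 0.11. Of 28 assembly factors of complexes II to IV, 2 were lower in suspension (14.7% of all genes) and 1 of these was higher on re-adhesion (15.6%). They were Ttc19, of complex III, at 2.53, 1.09 and 2.04, and Cox18, which inserts a complex IV subunit into the membrane, at 2.20, 0.93 and 2.36.

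Mitochondrial import and the citrate cycle each had a few genes past 2-fold, in shares near those of all genes. Of 25 import genes, 3 were lower in suspension, where 14.7% of all genes were, and 4 were higher on re-adhesion, where 15.6% of all genes were, with medians of -0.19, 0.60 and 0.21. Timm17a, a channel subunit of the inner membrane, was at 6.16, 4.67 and 6.28. Tomm40, the pore of the outer membrane, was at 5.01, 3.82 and 5.27, and Timm8a1 at 3.51, 2.34 and 3.43. All 3 were lowest in suspension and returned to the adherent level within 2-fold. Timm8a2 was detected on the re-adherent array only, at least 24.7-fold above the adherent array. It is among the 4 higher on re-adhesion and passed the filter only through the re-adherent array.

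Of 17 citrate cycle genes, 2 were lower in suspension and 3 were higher on re-adhesion, against the same shares of all genes, with medians of -0.12, 0.41 and 0.10. Pdha1, a subunit of pyruvate dehydrogenase, was at 3.05, 1.54 and 3.16, and Idh3a, of isocitrate dehydrogenase, at 3.73, 2.59 and 3.68. Of 77 genes of the mitochondrial ribosome, none passed 2-fold into suspension, where 17.2% of all genes were higher and 14.7% lower. On re-adhesion 6 were higher, where 15.6% of all genes were. The medians of this list were -0.14, 0.40 and 0.23. Mrps6, of its small subunit, was at 4.55, 4.12 and 5.56.

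**Figure D4:**
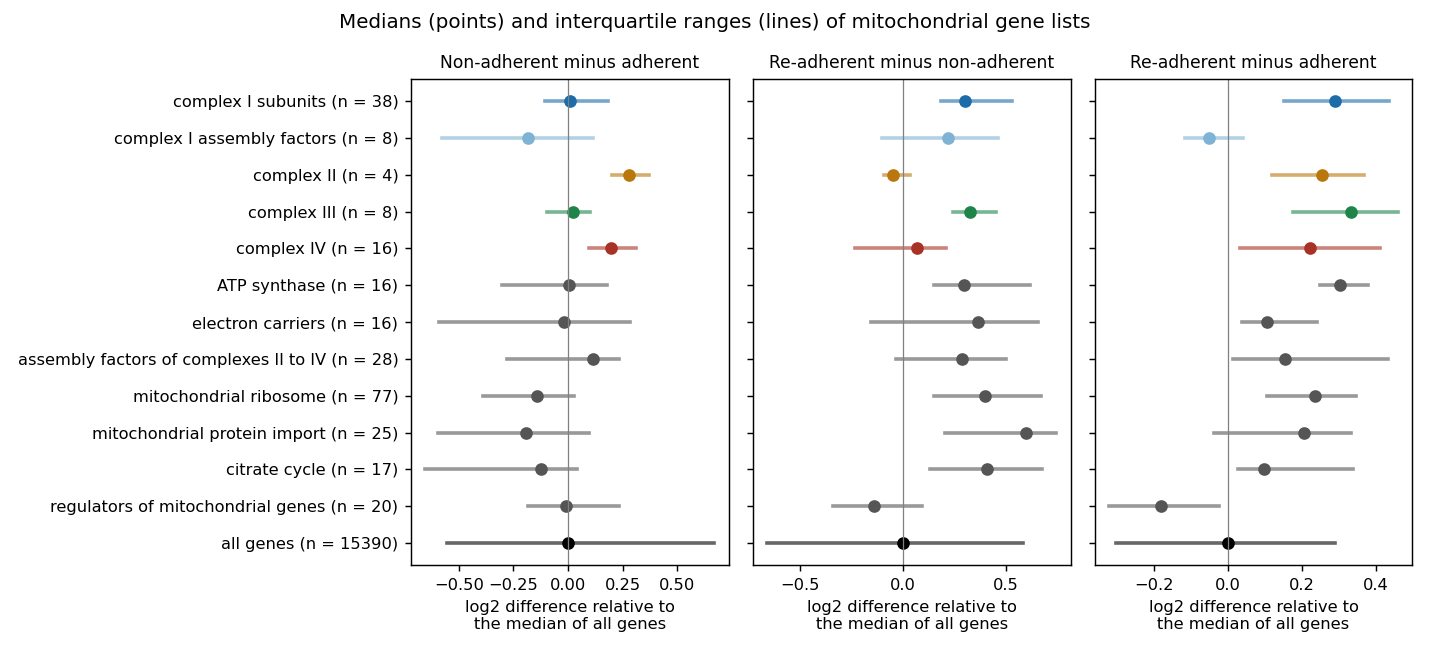
Points are medians and lines interquartile ranges of the log2 difference relative to the median of all genes, for the complexes (coloured), related mitochondrial lists (grey) and all genes (black), with the number of genes in each list. Into suspension the medians of complexes I and III and of ATP synthase lie close to 0, that of complex II at 0.28 and that of the complex I assembly factors at -0.18. On re-adhesion complex II lies at -0.05 and import at 0.60, and every list there has a narrower range than all genes.

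Of 20 regulators of mitochondrial genes, 18 stayed within 2-fold into suspension and 2 were higher, where 17.2% of all genes were. Nrf1 was at 1.22, 1.33 and 0.98, Gabpa, the DNA-binding subunit of GABP, at 0.74, 0.51 and 0.28, and Tfam, which packs mitochondrial DNA, at 1.54, 1.46 and 1.52. These 3 were within 2-fold in all pairs. The coactivators Ppargc1a and Ppargc1b, known to raise respiratory gene expression, were detected on the non-adherent array only. Ppargc1b was at -2.54 there, at least 6.66-fold above the adherent and at least 5.06-fold above the re-adherent array. Ppargc1a was at -3.81 there, at least 2.76-fold and at least 2.10-fold above them. Both signals were dim, and both genes passed the filter only through the non-adherent array. Whether either acted on the chain was not tested.

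Where a gene of the chain had several probes that passed the filter (16 genes), the SD of the difference over its probes had a median of 0.13, 0.07 and 0.06 in the 3 pairs. Probes disagreed in sign for Ndufb4 and Ndufb5 into suspension, for Ndufb5 and Uqcrb on re-adhesion and for Cox7c between re-adherent and adherent cells. The plain differences that disagreed were small for Ndufb4 and Uqcrb, and those of Cox7c ranged from -0.23 to 0.13. For Ndufb5 the probe used read -0.15 into suspension and the other 0.38, the widest range of the 16 genes in that pair. Ndufb4 has near-identical copies that can share its signal.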

How the data were processed

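Each of the 3 arrays was a 1-colour Agilent SurePrint G3 Mouse 8x60K array labelled with Cy3 from 0.1 µg RNA. The deposited scanner files held intensity values that the authors obtained with Agilent Feature Extraction 10.10.1.1, background-subtracted and detrended on a linear scale, with an error and flags for each spot. A deposited matrix of intensity values equalled the processed signal times 1 constant per array (1.52, 1.52 and 1.62), by a rule not given in the sources used here; its column medians were 60.8, 61.8 and 50.7. It served as an alternative.

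Control spots and flagged spots were left out, log2 processed signals were reduced by the array's 75th percentile, and spots of a probe were averaged. The single spots of Uqcrc2 were shown with none left out. Of 37881 transcript names, 21461 matched a RefSeq accession without its version, which named 27223 of 55665 probes. A gene entered if any array showed a probe of it well above background, and its brightest such probe stood for it. With 1 array per state there was no test. A gene not above background on an array has a bound there, either its own signal or the faintest one still well above background, whichever is higher. The number of arrays limits the precision.

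Named genes were members over 2-fold in any pair, isoform pairs, part of the catalytic core (1 gene is not reported here), the extremes of each complex, and up to 3 genes per direction of each pathway list; Ndufv3, Ndufa1, Ndufs4, Cox7a2l and the regulators within 2-fold were picked after values were seen. Members and lists were chosen with earlier results of these data known. Python 3.11.15, pandas 2.3.3 and limma 3.58.1 (R 4.3.3) were used. The steps were tested on simulated data.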

Additional observations from a re-analysis of the deposited data

How the results depend on the processing

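The results were recomputed under 18 alternatives in scaling, background correction, filter, probe choice, threshold and gene list. Of these, 3 were added after seeing the data. They were normexp on the median signal, leaving out the tissue isoforms and Ndufa4l2, and the genes above the 75th percentile as reference. Normexp on the mean signal was not run, since that column was not in the files used here. No paired analysis was possible because each state has 1 array, and no replicate could be left out for the same reason. The median of all genes itself moved by scaling, to -0.32, -0.14 and -0.40 in the 3 pairs with the spike-in probes. The cause of the changes below was not tested.

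Quantile normalization changed the most. On re-adhesion the median turned to -0.069 for all 74 genes, -0.045 for complex III and -0.20 for ATP synthase, and became 0.0094 for complex I subunits, -0.35 for complex IV and 0.33 for import. Into suspension it became 0.43 for complex IV and 0.25 for ATP synthase, and between re-adherent and adherent cells 0.10 for complex III, 0.0080 for complex IV and 0.081 for ATP synthase. Among single genes whose difference had exceeded its technical error, those that turned were Uqcrq (0.055 into suspension) and, on re-adhesion, Cox4i1 (-0.25), Cox6a1 (-0.32), Cox7a2l (-0.039), Sdhb (-0.21) and Uqcr10 (-0.17). Differences on re-adhesion that lay within that error, moved by more than it and turned were those of Cox8a (-0.56), Cox7a2 (-0.27), Ndufs3 (-0.18), Ndufs7 (-0.28) and Ndufv2 (-0.027). Without a filter the regulators' median on re-adhesion was -0.35, and with the mean over probes that of the electron carriers was 0.15. The mean in place of the median gave complex IV 0.67 into suspension and -0.38 on re-adhesion.

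The count of genes lower in suspension, 1, was 0 with no scaling, the percentile over detected probes, the authors' values, normexp or a 4-fold threshold, 3 with spike-in scaling and 4 at 1.5-fold. At 1.5-fold, 5 were higher in suspension, 16 higher on re-adhesion and 8 higher in re-adherent than in adherent cells, and at 4-fold 2 were lower on re-adhesion. Cox7a1 stayed between 1.81 and 2.27 into suspension and Ndufa4l2 between -3.23 and -2.46 in re-adherent minus adherent cells under every setting that gave a value, while Cox8b, dim on 2 arrays, ranged from 1.86 to 5.56 into suspension. Of the other values, 550 for lists and counts and 1173 for single genes moved by less than the technical error, or for counts by less than 1.5 times. Some of these, close to 0, changed sign. Many could not move. No scaling, the percentile over detected probes, the authors' values and spike-in scaling each shift a whole array by a constant. Differences relative to all genes stay the same under them by construction, and only counts can change, so those values are no check.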
